A study of Mus musculus with 4 samples.

Results

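Genes with several Ago2-bound sites were examined in mouse B cell progenitors transformed with Abelson virus. Of the 2548 features in the authors' deposited table, 485 belonged to the 147 genes with 3 or more listed features. These genes were found by dropping the 3 rows that repeat another row and the 8 rows named for Bim seed sites, and then keeping every gene identifier left in at least 3 rows. A further 7 genes with 25 features met the count and were left out by name. Of the 147 genes, 112 had 3 features, 26 had 4 and 9 had 5, and all are annotated as protein-coding. A feature is called a site below. Sites of a gene are numbered by their mean over the libraries, from the highest down, because the deposited table gives no positions. Where in a transcript a site lies, and how far apart sites are, is thus not known here. The leading site is site 1 unless a library is named.

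The cells came from E14.5 fetal livers on the C57BL/6 background, and were transformed with a retroviral vector that encodes the Abelson kinase, with interleukin-7 added at that step. There were 2 libraries of wild type cells and 2 of cells with the genotype Bim3'UTRmut/mut, in which both copies of the Bim 3' UTR are mutated. Cells of both genotypes were fed 4-thiouridine (500 µM, 5 hours) and crosslinked with light of 365 nm, and Ago2 was precipitated with its bound RNA, a method called PAR-CLIP. The labels call the libraries biological replicates and do not say whether they are separate lines or animals, so the p-values measure the spread between these libraries.

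Ago2 is an Argonaute protein that holds a microRNA and uses its seed, the stretch near the 5′ end, to find matching sites in messenger RNAs, mostly in 3' UTRs. Bound transcripts tend to be translated less and to decay faster. A long 3' UTR can hold several sites, for the same or for different microRNAs, and the sites of a transcript add to its repression. PAR-CLIP reads at different sites of a gene come from the same pool of transcripts where the sites lie on the same isoforms, which was not checked.

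The seeds of the miR-17 cluster show what such a site pairs with. This cluster of microRNA genes is known for repressing Bim, and 7 of the 147 genes are on a list of its textbook targets. Mature sequences are those of RefSeq (GRCm38.p6), 5′ to 3′, with the seed, bases 2 to 8, in capitals. The table assigns no microRNA to any site, so none of the sites below is credited to these.
mmu-miR-17-5p: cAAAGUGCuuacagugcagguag
mmu-miR-20a-5p: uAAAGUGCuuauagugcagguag
mmu-miR-18a-5p: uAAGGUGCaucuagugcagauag
mmu-miR-19b-3p: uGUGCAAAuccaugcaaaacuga
mmu-miR-92a-3p: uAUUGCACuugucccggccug
miR-17 and miR-20a share their seed, and the other 3 each have another one.

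Whole reads in each library were recovered from the deposited means. The wild-type libraries are called Wa and Wb and the mutant ones Ma and Mb, since their replicate numbers are not known. Where 4 values follow each other below, they are in the order Wa, Wb, Ma, Mb. The 485 sites totalled 30353 reads (Wa), 7136 (Wb), 4848 (Ma) and 2696 (Mb), or 18.4% to 19.7% of the reads of each library. The median site had 12, 4, 3 and 3 reads. Normalized reads are reads divided by the library's size factor, and a count of 0 allows up to 0.815, 2.76, 4.86 and 6.63 normalized reads. Intervals for a single library are 95% intervals, exact Poisson for reads and Wilson for shares, and cover counting error only. Library Mb stood apart from the others. Of 10 stromal and hepatocyte markers, 4 had listed features (Ccn2, Pdgfra, Thbs1 and Vim), which together held 4.08, 7.37, 9.71 and 466.5 normalized reads. Of 11 B lineage markers looked up, Rag1 alone was listed, with 2.45, 2.76, 3.24 and 0 normalized reads. No feature of 6 myeloid and 6 erythroid markers was listed. A missing feature does not show that a gene was silent, because the table lists bound sites. Intraclass correlations and group medians are therefore given with and without Mb, while values of single sites mostly include it. The part of these markers in the results was not tested.

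Reads were spread unevenly over the sites of a gene. In the authors' deposited table the leading site held a median of 56.2% of the summed mean of its gene, with quartiles of 47.6% and 68.0% over 147 genes. With 3 sites the share cannot be under 33.3%, and the median over the 112 genes with 3 sites was 60.3%. It was 43.4% over the 26 genes with 4 sites and 52.6% over the 9 with 5. The leading site held more than 50% in 95 genes and more than 75% in 24. The mean of the leading site was a median of 5.39 times that of the lowest site of the same gene. Among sites, 0.16 of the variance of the log2 mean lay between genes (intraclass correlation over 485 sites, a description only), and the rest among the sites of a gene.

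The genes with the most reads differed in how they divided them. Dnajb9, which encodes a co-chaperone of the endoplasmic reticulum, had the highest summed mean. Its site 1 had 849.2, 338.1, 990.6 and 424.5 normalized reads. Its site 2 had 636.7, 562.8, 778.5 and 132.7, and site 3 between 8.84 and 52.2. Sites 1 and 2 thus carried nearly all reads in every library, but not in the same proportion. Site 1 took 55.2% of the reads in Wa (interval 53.9% to 56.5%) and 54.8% in Ma (51.9% to 57.7%). It took 36.3% in Wb (33.4% to 39.3%) and 75% in Mb (69.4% to 79.9%). Within either genotype the 2 intervals were apart.

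Several genes had nearly all reads at a single site. Snx13, a sorting nexin, had 93.7% of its summed mean at site 1 in the authors' deposited table. Arl6ip1, a protein that shapes the endoplasmic reticulum, had 92.5%, Man2a1, the Golgi mannosidase, 90.3%, and Tnks2, a tankyrase, 89.9%. Man2a1 had this division in Wa, Wb and Ma only, since in Mb its site 1 held 35.7% and its site 2 64.3% of 14 reads. Arl6ip1 was steady across libraries, with 93.8, 104.1, 119.8 and 141.5 normalized reads at site 1. Klhl42, a Kelch-like gene with 5 sites, had 87.3% of its summed mean at site 1, where the normalized reads were 325.3, 183.3, 212.0 and 35.4. Lpgat1, an acyltransferase gene with 4 sites, had 74.6% at site 1, with 401.6, 232.1, 495.3 and 15.5 normalized reads. For both genes Mb was the lowest library at the leading site.

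In other genes at least a pair of sites was of similar strength. Rlim, a ubiquitin ligase gene with 5 sites, had shares of the summed mean from 14.0% to 28.9%, and its sites held between 1.62 and 11.1 normalized reads in any library. Togaram1, a gene of cilia, had 34.4% at its leading site of 4, Klf13, a zinc finger transcription factor, 36.3%, and the kinase gene Taok1 36.4%. Eif4g2, a translation initiation factor gene with 3 sites, had 40.3%, 36.5% and 23.3%. Its site 2 was level across libraries, at 71.2, 76.5, 66.4 and 66.3 normalized reads. Ppp1r15b, a phosphatase subunit that acts on a translation initiation factor, had 53.3% and 37.0% at the first pair of its 4 sites, and at most 5.78% at the others. Several other genes with 5 sites lay between these patterns. Elk4, an ETS transcription factor, had 58.3% at its leading site, Hipk3, a nuclear kinase, 52.6%, Nufip2, an RNA-binding protein, 64.7%, and Skil, a repressor of SMAD signalling, 61.7%. Kbtbd8, a BTB-Kelch gene, had 2 strong sites with 49.3% and 43.3%, and 3 with at most 3.76% each.

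**Figure D1:**
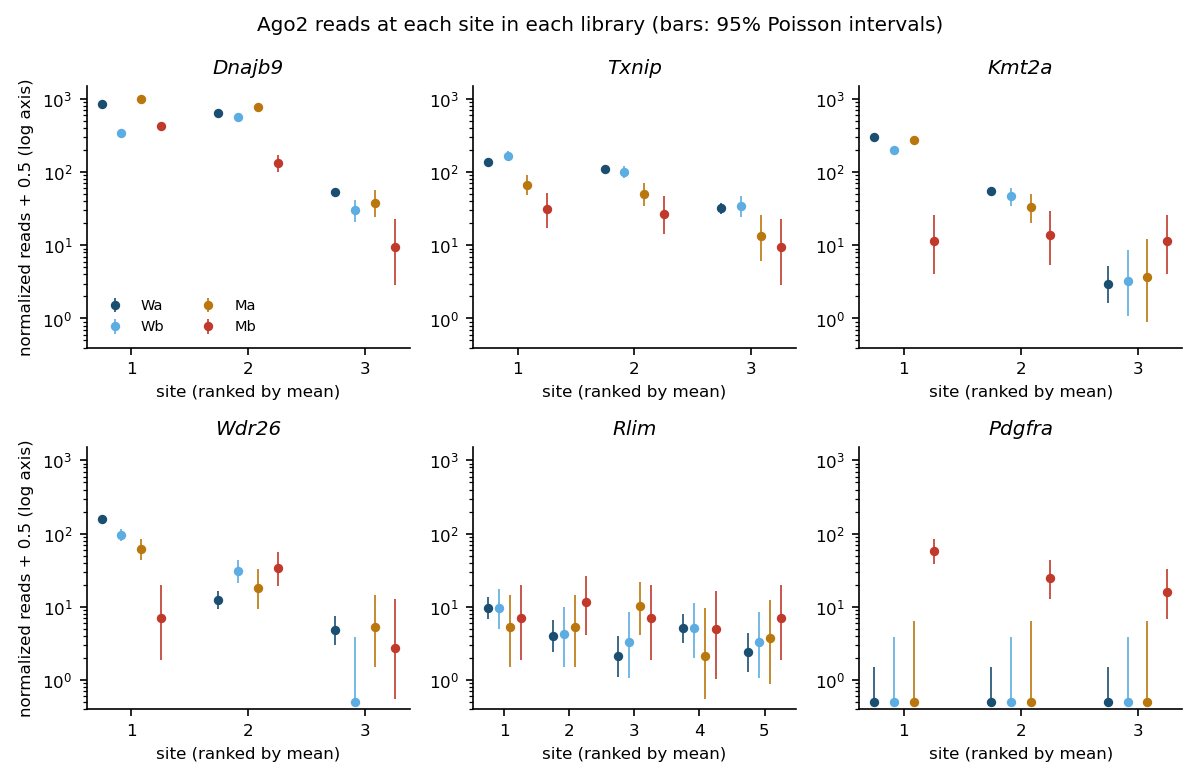
Normalized Ago2 reads plus 0.5 (log axis) at each site of 6 genes, with sites ranked by mean on the horizontal axis; points are the 4 libraries and bars their 95% Poisson intervals. Txnip is lower in both mutant libraries at all 3 sites, and Kmt2a has its leading site low in Mb alone. Wdr26 has its leading site lower in both mutant libraries and lowest in Mb. Rlim has 5 sites of similar height, and Pdgfra was read in Mb alone.

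The order of sites within a gene recurred in 3 of the libraries and much less in Mb. With each site expressed as log2(normalized reads + 0.5) minus the mean of its gene, the correlation over 485 sites was 0.75 for Wb with Wa, 0.77 for Ma with Wa and 0.64 for Ma with Wb. For Mb it was 0.24 with Wa, 0.38 with Wb and 0.34 with Ma. Restricted to genes with at least 10 reads in both libraries of a pair, the values were 0.78, 0.83 and 0.72 among Wa, Wb and Ma, and 0.31, 0.49 and 0.47 with Mb. These correlations are descriptions. Sites of a gene are not independent points, and Mb is the library with the fewest reads.

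**Figure D2:**
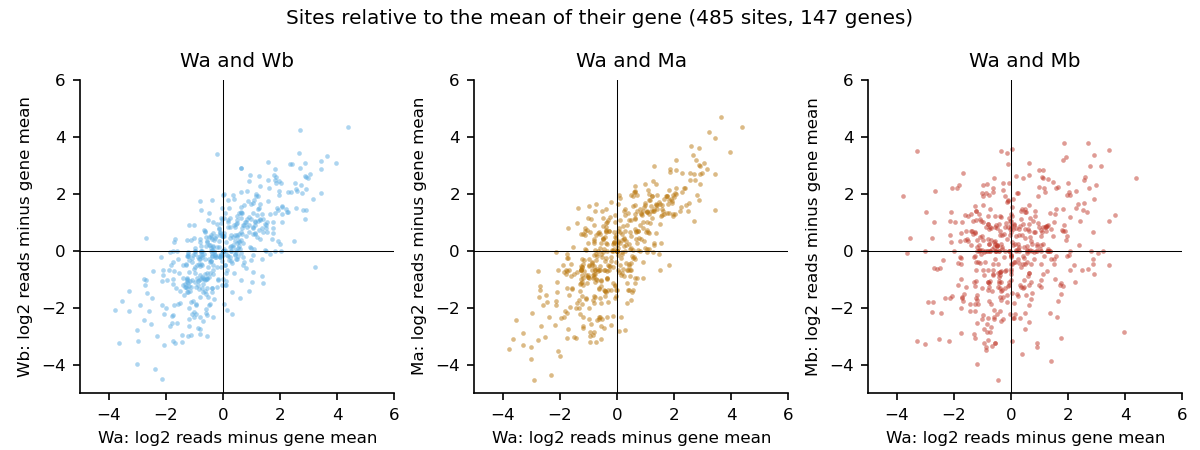
Each point is 1 of 485 sites, placed by log2(normalized reads + 0.5) minus the mean of its gene, in Wa on the horizontal axis and in Wb, Ma or Mb on the vertical axis. Points follow the diagonal for Wb and Ma (0.75 and 0.77) and form a round cloud for Mb (0.24).

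The site with the most reads was compared over the 50 genes that had at least 10 reads and a single top site in each of the 4 libraries. The same site led in Wa and Wb in 40 of the 50, in Wa and Ma in 43 and in Wb and Ma in 40. It led in Mb as well as in Wa in 28, in Wb in 26 and in Ma in 27. The leading site of Wa held a median of 71.6%, 67.5%, 71.3% and 43.1% of a gene's reads. The share in Wa is high partly because Wa chose the site, so the values to set side by side are those of the other libraries. The share was below that of Wa with separate intervals in 9 genes in Wb, 3 in Ma and 22 in Mb. In this measure Ma lay with the wild-type libraries and Mb lay apart, and the part of genotype was not tested.

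**Figure D3:**
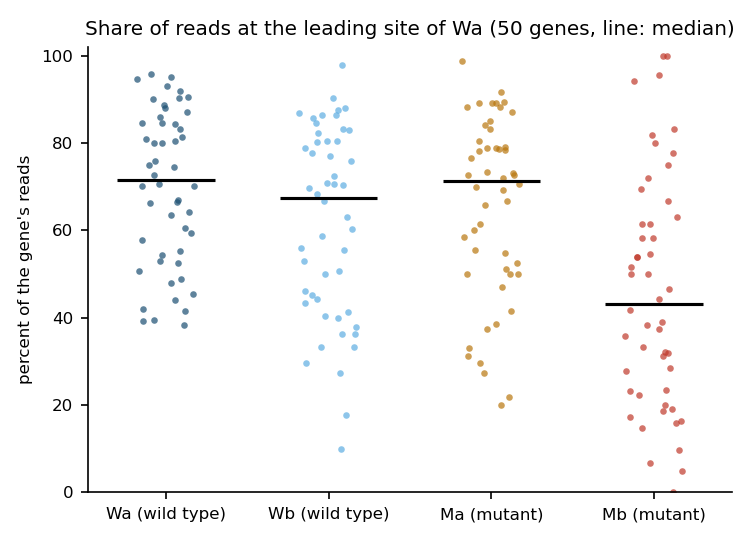
Percent of a gene's reads at the site that leads in Wa, for 50 genes in each library; points are genes and lines are medians. The medians of Wa, Wb and Ma lie between 67.5% and 71.6%, and that of Mb is 43.1%.

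In 14 of the 50 genes Wa, Wb and Ma had the same leading site and Mb another. The 14 were picked for this difference, so their values are descriptions with no test. At Wdr26, a subunit of a ubiquitin ligase, site 1 held 574, 104, 38 and 3 reads, and site 2 held 44, 33, 11 and 15. Site 1 thus took 73.1% to 90.5% of the reads in the other libraries and 15.8% in Mb (interval 5.52% to 37.6%). Gtf3c4, a transcription factor subunit for RNA polymerase III, had 13 of its 15 reads in Mb at site 2, a site with 9.09% to 28.6% of the reads in the other libraries. At Kmt2a, a histone methyltransferase gene, site 1 took 80.4% to 88.4% in the other libraries and 31.2% in Mb (14.2% to 55.6%), on 16 reads of the gene. Tnrc6a, which encodes a partner of Ago2 in silencing, showed a smaller difference on more reads. Its site 1 took 66.5%, 50.7%, 47.0% and 32.1%, the last with an interval of 22.9% to 42.9%. Man2a1, Nfat5, Rab8b, Taok1, Ppp1r15b, Klf13, Plxna1, Ankfy1, Itprid2 and B230219D22Rik were the others.

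Few sites were read in a single library. Of the 485 sites, 276 were read in all 4 libraries, 18 in Mb alone, 9 in Wa alone and 0 in Wb or Ma alone. The 18 sites of Mb alone are 3.71% of the members, against 5.03% of all features. They fell in 12 genes. In Pdgfra, a growth factor receptor gene, Slc5a3, the inositol transporter, and Lhfpl2 all 3 sites were read in Mb alone. Pdgfra had 26, 11 and 7 reads in Mb, Slc5a3 14, 7 and 5 and Lhfpl2 26, 9 and 5. In the other 9 genes the site was 1 of several, and the rest of the gene was read in other libraries too. Snx18, a sorting nexin, had 9 reads in Mb alone at site 1, while its site 3 had 20, 1, 3 and 0 reads. Dcp2, the decapping enzyme, had 7 reads in Mb alone at site 3, and its site 1 was read in all 4 libraries.

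Mutant and wild type were then compared site by site. After Benjamini-Hochberg adjustment over every feature, the p-values of the authors' deposited table passed 0.05 at 0 of the 485 sites, with a smallest adjusted p of 0.266 and an all-feature rate of 0%. Fitted with limma's voom on the recovered reads, the count was also 0, with an all-feature rate of 0%. Before adjustment, 36 sites in 29 genes were under 0.05 in the authors' deposited table, 33 higher in the mutant (6.80%) and 3 lower (0.619%). Over all features 8.37% were under that threshold, 7.47% higher and 0.904% lower. By the deposited p-values, genes with many sites were thus close to the background. With limma's voom 22 sites were higher (4.54%) and 0 lower, against 2.95% and 0.157% of all features. Of these 22 sites, 15 were among the 36 of the deposited table. By voom fewer sites were under 0.05 without Mb than without Ma, where Mb alone stood for the mutant. The shares of all features in those fits were not worked out. The median of the deposited log2 fold changes, mutant over wild type, was 0.01 over the 485 sites and -0.07 over all features. Both mutant libraries lay above both wild-type libraries at 87 sites (17.9%) and below at 95 (19.6%), where all features gave 13.1% and 20.1%.

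The 33 higher sites were picked as higher in the mutant, so their division between its libraries is a description with no test. Mb exceeded Wa and Wb at 33 of the 33, and Ma did so at 20. Ma had 0 reads at 12. At 9 all reads were those of Mb, so these are listed through Mb alone and had to come out higher. The same counts over all features were not made. The leading site of its gene made up 10 of the 33 (30.3%), the same share as leading sites have among all 485. Deposited log2 fold changes do not rank sites by size where reads lie in 1 library. At Pdgfra the deposited table gave 1.24 for site 1, with 26 reads, and 3.30 for site 2, with 11.

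Itpripl2, whose product is little characterised, had 3 of its 4 sites among the 33. Its site 1 had 0, 0, 1 and 20 reads, and the authors' deposited table gave 4.87 on the log2 scale with an unadjusted p of 0.000522. Benjamini-Hochberg adjustment of the deposited p-values, made here, gave 0.266. The standard error was 1.40, and all standard errors of deposited values were derived here from the log2 value and its p. Sites 2 and 3 of Itpripl2 held 19 and 6 reads in Mb and 0 in Ma. Nearly all reads of sites 1 to 3 were thus those of Mb. At site 2 of 2700081O15Rik both mutant libraries were above the wild-type ones, as at site 1 of Itpripl2, where Ma had a single read. It had 0, 0, 3 and 9 reads, and the deposited log2 fold change was 4.56 (standard error 1.40). The other 3 sites of the gene had 0.34 to 1.61.

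Skil had 5 sites with deposited log2 fold changes from -0.69 to 3.47. At site 2 the normalized reads were 0.544, 0.921, 6.47 and 22.1, without overlap of the genotypes. The authors' deposited table gave 3.47 there (standard error 1.21, unadjusted p = 0.00408). The leading site of Skil held 17.4, 35.0, 35.6 and 35.4 normalized reads, with a deposited log2 fold change of 0.43 (standard error 0.75), with Wa the lowest library. Dsel, an epimerase-like gene, had 3.28 (standard error 1.27) at site 2 in the deposited table, on 2, 1, 2 and 11 reads, and 0.67 at site 1. Slc5a3 had 3.56, 2.89 and 2.63 at its 3 sites, all read in Mb alone.

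Txnip was lower in the mutant at each of its 3 sites, although no site passed adjustment. Txnip encodes an inhibitor of thioredoxin that responds to glucose. Site 1 had 135.3, 166.7, 66.4 and 31.0 normalized reads. Site 2 held 110.1, 99.5, 50.2 and 26.5, and site 3 held 31.5, 34.1, 12.9 and 8.84. At each site both mutant libraries lay below both wild-type ones. The authors' deposited table gave log2 fold changes of -1.52 (standard error 0.72, unadjusted p = 0.0335), -1.36 (0.70, 0.0527) and -1.46 (0.78, 0.0625), and each had a Benjamini-Hochberg adjusted p of at least 0.569. The limma voom log2 fold changes of the 3 sites lay between -2.21 and -1.05 when any 1 library was left out. No RNA levels were used here, so less binding and less transcript cannot be told apart.

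Nfat5, S1pr1 and Rictor each had 1 site among the 6 with the smallest p on the lower side. Their other sites had deposited log2 values from -0.79 to 1.07, and the limma diffSplice F test gave 0.217 (Nfat5), 0.697 (S1pr1) and 0.415 (Rictor) as the unadjusted p for a difference between sites of the gene. Nfat5 encodes a factor that switches on genes under salt stress. Its site 1 had 39.4, 68.2, 12.9 and 13.3 normalized reads, without overlap of the genotypes, and the authors' deposited table gave -1.88 on the log2 scale (standard error 0.78) with an unadjusted p of 0.0157. Sites 2 and 3 of Nfat5 had 1.07 (1.22) and -0.79 (1.13). Site 2 of S1pr1, a receptor that guides lymphocytes out of tissues, had 45, 39, 3 and 0 reads, with a deposited log2 fold change of -2.60 (standard error 1.18). Its leading site did not follow genotype, with 509, 2, 77 and 0 reads. Site 2 of Rictor, a subunit of a TOR complex, held 41, 27, 3 and 0 reads, with -2.25 (standard error 1.19, unadjusted p = 0.0585), while its other sites had between -0.58 and 0.14 in the deposited table.

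**Figure D4:**
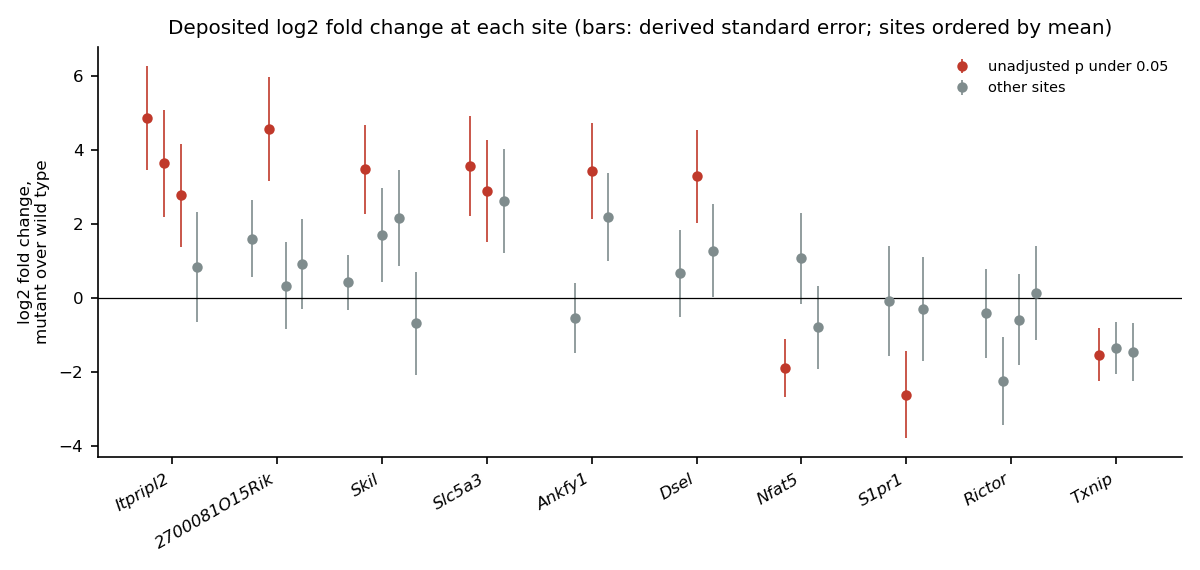
Deposited log2 fold change, mutant over wild type, at each site of 10 genes, with sites ordered by mean from left to right and bars showing the standard error derived from the deposited p. Red points have an unadjusted p under 0.05; Txnip has its 3 sites together between -1.52 and -1.36, while Ankfy1, Skil and Nfat5 have sites on both sides of 0.

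Sites of a gene were next compared with each other. In 101 of the 147 genes (68.7%) the deposited log2 fold changes lay on both sides of 0. In 25 genes all sites were above 0 and in 21 all below. Of all features 47.4% lay above 0 and 52.6% below, so unrelated sites would often lie on both sides too. The share of genes that unrelated sites would give was not worked out. In 16 genes, sites lay beyond 1 in each direction. The SD over the sites of a gene had a median of 0.94. The intraclass correlation of the log2 fold change, the share of variance that lay between genes, was 0.34 over the 485 sites and 0.42 over the 650 sites of genes with 2. From voom it was 0.36 with all libraries and 0.11 without Mb (over 467 sites), and between 0.25 and 0.43 without any other library. These values are descriptions, since sites share libraries.

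Whether the sites of a gene changed unequally between genotypes was tested with limma's diffSplice on the recovered reads, over the 489 genes with at least 2 sites. At an adjusted p of 0.05 the F test passed 0 of the 147 genes, with an all-gene rate of 0%. At an unadjusted p under 0.05 it gave 3 of 147, or 2.04%, against 1.23% of all genes tested. The Simes version of the test also gave 0, with 4 at an unadjusted p under 0.05, and its rate over all genes was not worked out. With a library left out, genes passed only without Ma, with Mb alone on the mutant side, Cfap97 and Kmt2a among them. That fit assumes that the lone library varies like the pair, and its rate over all genes was not worked out. Without Mb 0 genes passed, and 0 had an unadjusted p under 0.05 in limma's diffSplice.

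The 3 genes with an unadjusted p under 0.05 were Cmtm6, Ankfy1 and 2700081O15Rik, with diffSplice p-values of 0.0225, 0.0231 and 0.0357 and an adjusted p of 0.985 for each. Cmtm6, a membrane protein gene, had 28.8, 16.6, 16.2 and 6.63 normalized reads at site 1, and its sites 2 and 3 were highest in the mutant libraries. Site 3 held 0.544, 0.921, 3.24 and 13.3 normalized reads. Ankfy1, an effector of Rab proteins on endosomes, had 36.7, 11.1, 22.7 and 8.84 normalized reads at site 1, where the genotypes overlapped. At its site 2 they did not, with 0, 0.921, 4.86 and 17.7. The change at site 2 was 4.13 above that of the other sites on the log2 scale (limma's diffSplice, unadjusted p = 0.0218), on 12 reads in all. Cfap97 had 108.4, 147.4, 59.9 and 0 normalized reads at site 1, and 0, 3.69, 0 and 13.3 at site 3. Stxbp5, the syntaxin-binding protein tomosyn, had 5 reads at site 2, all in Mb, and 22, 11, 1 and 0 reads at site 1. Plxna1, a semaphorin receptor gene, had deposited log2 fold changes of -0.72 at site 1 and 1.45 and 1.31 at sites 2 and 3.

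Genes were also grouped by role, with hand-made lists that overlap, do not hold every gene of a role and are described by counts only. The 9 genes of membrane traffic, cytoskeleton and GTPases had 28 sites, 16 above 0 and 12 below, and the median of their deposited log2 fold changes was 0.80 against -0.07 over all features. At an unadjusted p under 0.05 they included 4 higher sites and 0 lower of 28, where all features had 7.47% higher and 0.904% lower. The list holds Snx18 but not Snx13, whose sites were all below 0, or Stxbp5, with sites on both sides of 0. The median with these genes added was not worked out. Rab22a, a GTPase of endosomes, had 2.77 at site 1 (standard error 1.18), with 0.272, 4.61, 9.71 and 39.8 normalized reads. Rab8b, a GTPase of secretion, had -0.52 at site 1 and 0.88 to 1.84 at its other 3 sites. This contrast was not seen without Mb. The voom values of its sites, in order, were -0.88, 1.12, 0.68 and 0.94 with all libraries. Without Mb they were 0.16, 0.29, -0.61 and -1.06. The voom median of the group was 0.71 with all libraries and 0.12 without Mb, where all features had 0.07.

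The 7 textbook targets of the miR-17 cluster, with Ankfy1, E2f3, Kmt2a and Txnip among them, had 21 sites, 8 above 0 and 13 below, and the median of their deposited log2 fold changes was -0.40. At an unadjusted p under 0.05 they gave 1 higher site (Ankfy1) and 1 lower (Txnip) of 21, where 8.37% of all features were under 0.05. Their voom median was -0.32 with all libraries and 0.06 without Mb. E2f3, a transcription factor of S phase entry, had 0.08 at site 1 and -1.87 (standard error 1.15) at site 2 in the deposited table, and site 2 held 12.8, 28.6, 8.09 and 0 normalized reads.

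The 8 genes on the list of mRNA binding, translation and decay had 28 sites, 11 above 0 and 17 below, with a median of -0.24. None of these 28 sites had an unadjusted p under 0.05, where 8.37% of all features did. All 8 had sites on both sides of 0. Their voom median was -0.32 with all libraries and -0.41 without Mb. Dcp2 is not on the list, and its site 3, read in Mb alone, had an unadjusted p of 0.0361 in the authors' deposited table. Tnrc6a had -0.61 (standard error 0.66), 0.45 (0.73) and 0.82 (0.79) at its sites in the deposited table. Btg2 and Tob2, which recruit a deadenylase, had between -0.52 and 0.26, and Btg2 divided its reads evenly over sites 1 and 2, with 49.2% and 47.7%. The 12 genes on the list of transcription and chromatin had 39 sites, 14 above 0 and 25 below, with a median of -0.30. Of these 39 sites, 1 had an unadjusted p under 0.05, where 8.37% of all features did. It was the lower site of Nfat5, while Skil, a transcriptional repressor that is not on the list, had a higher one. The voom median of the 39 sites was -0.24 with all libraries and 0.02 without Mb. Kmt2a had -0.70 (1.11), -1.03 (0.77) and 1.17 (1.16) in the deposited table, and Elk4 between -0.73 and 1.18.

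The 7 genes on the list of kinases, phosphatases and their adaptors had 26 sites, 14 above 0 and 12 below, with a median of 0.19. None of these 26 sites had an unadjusted p under 0.05, where 8.37% of all features did. The list holds Tnks2, which is neither a kinase nor a phosphatase and has its lowest value (-1.64), and does not hold Ppp1r15b. Its voom median was 0.15 with all libraries and 0.02 without Mb. Hipk3 had 1.90 (standard error 1.15) at site 4 and -0.35 at site 1. The voom value of its site 4 was 1.83 with all libraries and 0.45 without Mb. Map3k2, a kinase of the MAP kinase cascade, had -0.53 at site 1 and 2.49 (1.34) at site 4, which held 0 reads in Wa and Ma, 1 in Wb and 9 in Mb. Taok1 had 0 reads in Mb at site 1, against 35.6, 47.9 and 35.6 normalized reads in Wa, Wb and Ma, and 28.7 in Mb at site 2. The 3 genes of the ubiquitin pathway, with Usp31 among them, had 9 sites, 5 above 0 and 4 below, with a voom median of 0.14 with all libraries and 0.45 without Mb. Site 3 of Usp31, a deubiquitinase gene, had 5.43, 1.84, 24.3 and 11.1 normalized reads, with a deposited log2 fold change of 1.93 (standard error 1.01). Both mutant libraries were above both wild-type ones there, and the other sites of Usp31 had 0.13 and -0.28. The 3 genes of cell cycle and growth, Btg2, E2f3 and Tob2, had 9 sites, 4 above 0 and 5 below, with a median of -0.17. Their voom median was -0.28 with all libraries and -0.56 without Mb.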

How the data were processed

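The file is the authors' own DESeq2 comparison. Per the file headers, it gives a mean over the 4 libraries (a normalized signal), a log2 fold change and an unadjusted p-value for each feature. Per the submitters' processing notes, CASAVA 1.8.2, BWA 0.7.12-r1039 and DESeq2 were used, with builds mm9 and NCBIM37. How features were defined and counted is not given in the sources used here, nor is removal of PCR copies. The direction of the deposited log2 values, mutant over wild type, was read from the table's name. Judged by its values, the deposited log2 column was shrunk; a standard error is the size of the log2 value divided by the normal quantile that its p-value implies.

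Reads per library were worked out from the deposited means, which add up whole reads divided by size factors. Low means gave the weight of a read in each of the 4 libraries, and a search over whole reads then found 1 combination for each of 2548 features (misfit at most 5.97e-13). The search was checked on simulated reads, except for the features with the highest means. The size factors were 3.68, 1.09, 0.618 and 0.452 for Wa, Wb, Ma and Mb. Libraries were assigned to genotypes by signs: this division matched 98.8% of the deposited log2 signs, and the others at most 67.6%. Every feature had at least 5 reads in 1 library.

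Duplicate rows were dropped, which left 2545 features. Benjamini-Hochberg adjustment, limma 3.58.1 (voom with the recovered size factors, then diffSplice) in R 4.3.3 and their calls covered the whole table. Symbols came from the RefSeq table of GRCm38.p6, which matched 2540 rows and whose build differs from the notes. The deposited table gives no coordinates of its features, so none were used. Genes were named by a rule: the 6 with most sites, the 8 with the highest summed mean, the 6 smallest p in each direction, the 6 smallest diffSplice p, the 4 highest and 4 lowest leading shares among genes at or above the median summed mean, and up to 3 of each role list. Some of these are not described singly, and some genes are not reported here. Wdr26, Gtf3c4, Pdgfra, Lhfpl2, Snx18, Dcp2, Tob2 and the genes listed with a changed leading site were named after their values were seen or because they are on a list. The members and lists were chosen with earlier results of these data known.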

Additional observations from a re-analysis of the deposited data

How the results depend on the processing

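The counts of sites in this section describe each setting only. Their shares over all features were worked out only for the deposited p-values at 0.05 and for limma's voom with all libraries. Of the 485 sites, 36 (7.42%) had a deposited unadjusted p under 0.05, against 8.37% of all features. The count was 6 at a threshold of 0.01, 67 at 0.1, 11 among the sites of genes with 4 or more, 22 with limma's voom and 10 with limma on log2 values. With 1 library left out of voom it ran from 11 (without Mb) to 118 (without Ma), and was 16 without Wa. The count at an adjusted p of 0.05 ran from 0 to 69, and was 69 only without Ma, when Mb alone stood for the mutant. The number of genes whose sites differed ran from 0 to 3 in the same way. The alternative on log2 values for the site count, and those with library totals as scaling, were chosen after seeing the data. The median share of the leading site was 45.8% in genes with 4 or more sites, and ran from 55.8% to 62.3% with 1 library left out, highest without Mb. Genes with sites on both sides of 0 numbered 16 when both had to pass 1 on the log2 scale, and 86 to 107 with 1 library left out. With 3 libraries the lone one is assumed to vary like the pair. No paired analysis was possible because the recovered libraries carry no replicate numbers. The median site held 3 reads in Ma and in Mb, and each genotype had 2 libraries, so a site without a call is not shown to be alike in both.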
